A study of Rattus norvegicus with 4 samples.

Results

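The inorganic ion cotransporters and exchangers of the rat kidney inner medulla were described here as 51 genes of 35374 loci in the deposited expression table. They were picked by symbol, under a rule that uses no measured value: all genes of the Slc4a, Slc8a, Slc9a, Slc12a, Slc20a, Slc24a, Slc26a and Slc34a families, without Slc4a1, Slc4a9, Slc26a4, Slc12a1 and Slc12a3. Each had 1 row of its own. The symbols bring in 3 proteins that are not transporters, the scaffolds Slc9a3r1 and Slc9a3r2 and the adaptor Slc4a1ap, so 48 members are transport proteins. Sprague Dawley rats, female and male, gave total RNA for 4 libraries, 2 per sex, each from a pool of 4 animals, so that 8 rats stand behind each sex. Animals were 13 to 15 weeks old when bought, began a diet with 0.49% NaCl at 14 to 16 weeks and ate it for 2 weeks, and neither sex received any other treatment. Libraries held 37630274 and 41945343 read pairs in the female pools, against 34552171 and 36978021 in the male pools.

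The deposited table gives 1 FPKM value per gene and sex, a read fragment count normalised for transcript length and for sequencing depth. It was read as both pools of a sex joined. No spread between pools can be had from it, so no value below carries an SD. Each comparison is judged by the authors' deposited table, which gives a p-value and a q-value, q being adjusted across all 20307 tested loci, and a gene is said to be called where q was under 0.05. The smallest q the authors deposited was 0.00391, a floor that several genes share, so it does not rank them. All log2 ratios are female over male. Positions are those of the deposited table in build rn5 and were not checked against a genome. For 15 members the listed interval stands for another locus as well, as that of Slc26a1 does for Idua.

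These proteins move sodium, potassium, chloride, bicarbonate, protons, phosphate, sulfate and calcium across membranes without using ATP directly. The sodium gradient set up by the sodium pump, or the gradient of another ion, drives them. In the kidney they recover filtered salt, bicarbonate and phosphate, and in the medulla, where cells face high and changing salt, they also hold cell volume and cell pH. Several are tied to a segment: Slc34a1 recovers phosphate in the proximal tubule, Slc26a7 exchanges chloride for bicarbonate in acid-secreting intercalated cells, and Slc12a2 loads chloride into cells from the blood side.

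Of the 51 members, 38 were tested by the authors, and 3 were called, all higher in females: Slc12a8, Slc26a7 and Slc34a1. That is 7.89% of the tested members, where 1.63% of all tested loci were called higher in females. None was called higher in males, where the share over all tested loci was 0.719%. At an unadjusted p under 0.05 in the authors' deposited table, 7 tested members (18.4%) were higher in females, against 6.08% of all tested loci, and 1 (2.63%) was higher in males, against 3.68%. The other members with p under 0.05 and the higher value in females were Slc4a5, Slc34a2, Slc9a3r2 and Slc12a2. Over the tested members the log2 ratio had a median of 0.07, and that of all tested loci above 0 in both sexes was -0.00479. Female values were above male values for 23 of the 38, or 60.5%, which compares with 49.2% of all tested loci.

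Of the 23 members with a mean of the sexes of at least 5 FPKM, 14 were less than 1.2-fold apart, or 60.9%, where 81% of all tested loci at that level were. At the same level 3 members, Slc34a1, Slc26a7 and Slc34a2, were at least 1.5-fold apart, or 13%, against 4.47% of all loci. Over all levels 5 of the 38 tested members were at least 1.5-fold apart, or 13.2%, where 19.6% of all tested loci above 0 in both sexes were. The authors' test made few calls at small folds. The smallest fold called was 1.47 among loci with a mean of 5 to 20 FPKM, 1.46 at 20 to 100 FPKM and 1.48 above that, but 1.58 at 1 to 5 FPKM and 2.13 below 1 FPKM. No locus with a smaller fold was called at these levels, so a member that was not called is not thereby shown to be equal in both sexes.

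**Figure D1:**
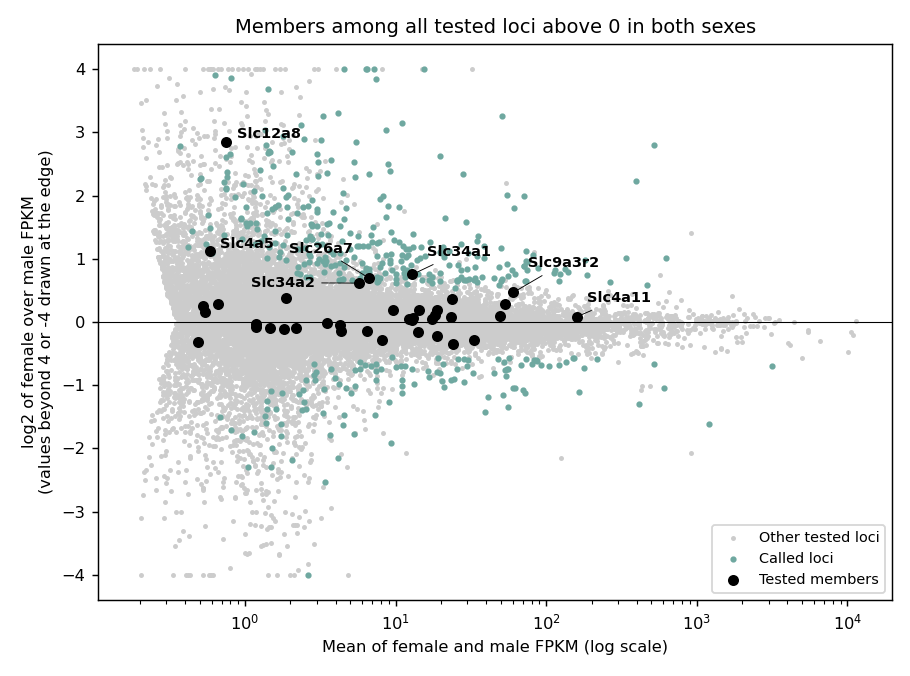
Each point is a tested locus above 0 in both sexes, with the mean of female and male FPKM on a log axis and the log2 ratio of female to male on the other, and the 38 tested members are in black. Slc12a8, Slc26a7 and Slc34a1 lie among the called loci above 0, while Slc4a11, the member of highest level, lies near 0.

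Slc12a8 had the largest ratio among the tested members. It belongs by sequence to the cation-chloride cotransporters, but its cargo in the kidney is not settled, and in mouse it has been reported to carry nicotinamide mononucleotide. Its level (chromosome 11, 73432327 to 73586302) was 1.32 FPKM in females and 0.183 FPKM in males, a fold of 7.22 (q = 0.00391; the authors' deposited table). The male value is low, and the fold depends on how low values are treated: the log2 ratio of 2.85 was 2.33 with 0.1 FPKM added to both values and 0.97 with 1 FPKM added. Only 28 of 3154 tested loci with a mean under 1 FPKM and values above 0 in both sexes were called, and Slc12a8 is 1 of them.

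Slc34a1, the sodium-phosphate cotransporter of the proximal tubule brush border (chromosome 17, 11856945 to 11872100), had 16.2 FPKM in females and 9.63 FPKM in males. The fold was 1.69 (q = 0.00391; the authors' deposited table). Slc26a7, the chloride-bicarbonate exchanger (chromosome 5, 32676373 to 32816625), had 8.20 FPKM in females and 5.05 FPKM in males. This is 1.62-fold higher in females (q = 0.00391; the authors' deposited table). In whole tissue, a larger number of cells of a type and more RNA per cell cannot be told apart, here and in each comparison that follows.

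The promoters of the tested members at least 1.5-fold apart are shown because these are the members whose levels lay farthest apart. They are the 250 bases before the gene start from RefSeq, assembly GRCr8, given 5′ to 3′ on the gene's strand; 39 of the 51 members matched the promoter table, and none is printed for Slc26a7. Capitals mark letters of 4 short motifs searched on both strands: AGAACA, bound by androgen, glucocorticoid and mineralocorticoid receptors, AGGTCA, bound by many nuclear receptors, GTTAAT, part of the HNF1 site, and TGGAAA, the core bound by NFAT5 and other NFAT factors.
Slc12a8, chr11:80770916-80771165, minus strand: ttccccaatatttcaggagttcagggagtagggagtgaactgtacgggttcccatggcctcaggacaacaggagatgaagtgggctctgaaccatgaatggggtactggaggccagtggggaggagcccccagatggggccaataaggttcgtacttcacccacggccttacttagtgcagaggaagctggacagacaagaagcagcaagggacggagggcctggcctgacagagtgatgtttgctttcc
Slc34a1, chr17:9238984-9239233, minus strand: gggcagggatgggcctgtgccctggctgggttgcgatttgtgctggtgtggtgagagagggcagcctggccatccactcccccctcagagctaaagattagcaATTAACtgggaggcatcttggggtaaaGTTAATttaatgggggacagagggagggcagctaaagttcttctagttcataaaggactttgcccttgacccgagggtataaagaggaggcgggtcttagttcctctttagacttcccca
Slc34a2, chr14:62143073-62143322, minus strand: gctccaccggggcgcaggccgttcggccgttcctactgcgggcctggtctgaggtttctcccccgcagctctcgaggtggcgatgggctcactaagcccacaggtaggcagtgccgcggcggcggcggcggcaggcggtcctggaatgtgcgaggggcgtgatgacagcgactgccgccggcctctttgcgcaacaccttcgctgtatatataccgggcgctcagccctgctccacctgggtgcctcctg
Slc4a5, chr4:117283044-117283293, plus strand: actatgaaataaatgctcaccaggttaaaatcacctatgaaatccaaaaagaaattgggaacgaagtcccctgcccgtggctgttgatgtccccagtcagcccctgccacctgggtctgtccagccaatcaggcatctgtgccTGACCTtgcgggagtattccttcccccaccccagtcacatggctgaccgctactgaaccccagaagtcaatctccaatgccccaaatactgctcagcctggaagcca
Slc34a1 had GTTAAT on each strand, starting 147 and 120 bases before the gene start, and no hit of the other motifs. GTTAAT was found in 6.45% of 33469 promoters of this length and in 3 of the 39 matched members. AGGTCA stood in reverse in Slc4a5, 107 bases before the start, and it was found in 14.1% of all promoters and in 7 of the 39. AGAACA and TGGAAA were in none of the windows printed, in 2 of the 39 members each, and in 17.5% and 19.7% of all promoters. A hit of so short a motif is a description of the letters, and the absence of a hit says only that these letters are not in this window.

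Phosphate carriers of the Slc34a family were the ones in which each tested member was at least 1.5-fold apart. Slc34a2, the cotransporter best known from lung and intestine (chromosome 14, 60375915 to 60405603), had 6.91 FPKM in females and 4.51 FPKM in males. That is 1.53-fold (p = 0.002 and q = 0.0711; the authors' deposited table), so it was not called. Slc34a3, the third brush border phosphate cotransporter, had 0.250 FPKM in females and 0.170 FPKM in males and was not tested by the authors. The broadly expressed phosphate carriers of the other family showed no such gap. Slc20a1 (chromosome 3, 128276542 to 128292029) had 18.8 FPKM in females and 17.5 FPKM in males (q = 0.999; the authors' deposited table). Slc20a2 (chromosome 16, 73949886 to 74055583) had 23.9 and 22.7 FPKM in females and males (q = 0.999; the authors' deposited table). Its interval is listed for Smim19 too, at 54.1 FPKM in females and 52.0 FPKM in males. Summed, the Slc20a genes gave 42.7 FPKM in females and 40.2 FPKM in males, above the Slc34a sums of 23.4 and 14.3 FPKM.

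The gene with the highest level among the 51 was Slc4a11, a membrane protein that carries protons and whose human gene is mutated in a corneal dystrophy. Its level (chromosome 3, 129722366 to 129725935) was 164 FPKM in females and 155 FPKM in males, 1.06-fold apart (q = 0.999; the authors' deposited table). It made up 79.3% of the FPKM sum of the 8 Slc4a transporters kept by the rule in females and 75.5% in males. That sum leaves out Slc4a9 and also Slc4a1, which had more than Slc4a11, at 208 FPKM in females and 184 FPKM in males. No member of this family was called by the authors' test, and 1, Slc4a5, had p under 0.05. Slc4a2, the widely expressed chloride-bicarbonate exchanger of the basolateral membrane (chromosome 4, 7276046 to 7294005), had 30.1 FPKM in females and 36.5 FPKM in males (p = 0.1002 and q = 0.691; the authors' deposited table). Its relative Slc4a3, best known from heart and brain, was at 7.37 and 8.93 FPKM in females and males, the same 1.21-fold.

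The sodium-coupled bicarbonate carriers were all low. Slc4a7, the electroneutral cotransporter, was at 1.76 FPKM in females and 1.90 FPKM in males, and Slc4a10, best known from brain, at 1.41 and 1.51 FPKM. Slc4a8, which trades chloride for sodium and bicarbonate, was at 0.729 FPKM in females and 0.601 FPKM in males. Slc4a4, which passes bicarbonate out of proximal tubule cells into blood, was at 0.571 FPKM in females and 0.481 FPKM in males. Slc4a5, an electrogenic sodium-bicarbonate cotransporter (chromosome 4, 179507405 to 179590667), had 0.799 FPKM in females and 0.367 FPKM in males. Its fold of 2.17 was the second largest among the tested members (p = 0.0089 and q = 0.192; the authors' deposited table), and it was not called. The adaptor Slc4a1ap was at 13.0 FPKM in females and 12.8 FPKM in males.

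Among sodium-hydrogen exchangers, which trade sodium for protons, and their scaffolds, none was called by the authors' test, and of those given here Slc9a3r2 alone had p under 0.05. Slc9a4, a basolateral form found in stomach and in the kidney medulla (chromosome 9, 46963001 to 47018305), had the highest level of the 9 exchangers. It was at 51.1 FPKM in females and 47.7 FPKM in males (q = 0.999; the authors' deposited table), and made up 43.7% and 40.3% of the exchanger sum in females and males.

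Slc9a3, the apical exchanger that recovers much of the filtered sodium in the proximal tubule, was at 10.3 FPKM in females and 8.99 FPKM in males (q = 0.940; the authors' deposited table). Slc9a2, another apical form, was at 2.11 FPKM in females and 1.63 FPKM in males. Slc9a8 was at 17.9 FPKM in females and 17.3 FPKM in males. Slc9a5, found mainly in brain, was at 0.573 FPKM in females and 0.515 FPKM in males, Slc9a9 of endosomes at 0.434 and 0.541 FPKM, and Slc9a7 of the Golgi, not tested, at 0.294 and 0.235 FPKM. The scaffolds that hold Slc9a3 and Slc34a1 at the membrane had higher levels than any exchanger in both sexes. Slc9a3r2 (chromosome 10, 13820309 to 13830824) had 70.3 FPKM in females and 50.8 FPKM in males, 1.38-fold (p = 0.00505 and q = 0.130; the authors' deposited table). Slc9a3r1 (chromosome 10, 104573315 to 104590543) had 58.4 FPKM in females and 48.03 FPKM in males (q = 0.688; the authors' deposited table). Both gaps are smaller than any fold that was called at their level.

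**Figure D2:**
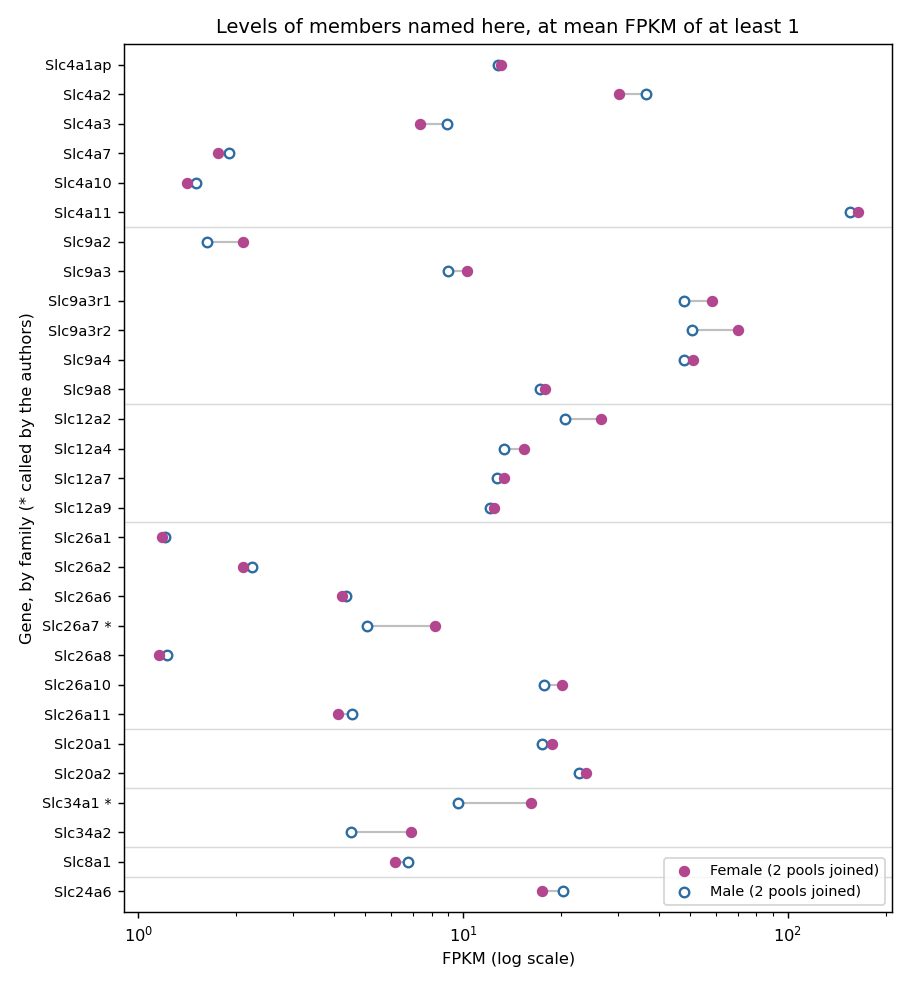
FPKM of 29 members with a mean of at least 1, on a log axis, by family, with the female value filled and the male value open and a line joining them; each point joins 2 pools and has no error bar. Slc4a11 stands apart at 164 FPKM in females and 155 FPKM in males, and the widest gaps are those of Slc34a1, Slc26a7 and Slc34a2.

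In the cation-chloride cotransporters, Slc12a8 was the only one called. Slc12a2, which loads sodium, potassium and chloride into the cell at the basolateral side (chromosome 18, 52104433 to 52172618), had 26.5 FPKM in females and 20.6 FPKM in males. It was 1.29-fold apart (p = 0.0268 and q = 0.374; the authors' deposited table). The potassium-chloride cotransporters let potassium and chloride leave, as cells do after swelling. Slc12a4 (chromosome 19, 48784044 to 48805888) had 15.4 FPKM in females and 13.4 FPKM in males (q = 0.922; the authors' deposited table). Slc12a7 was at 13.4 and 12.8 FPKM in females and males. Slc12a5, the form of neurons, was at 0.0745 FPKM in females and 0.0501 FPKM in males and was not tested. Slc12a9, a family member found to bind Slc12a2, was at 12.5 FPKM in females and 12.1 FPKM in males.

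Among the anion exchangers, which carry chloride, bicarbonate, sulfate or oxalate, Slc26a7 was the only one called. Slc26a10 had the highest level (chromosome 7, 70616751 to 70645045, an interval listed for B4galnt1 too) at 20.2 FPKM in females and 17.8 FPKM in males (q = 0.999; the authors' deposited table). The level of B4galnt1 there was 12.6 FPKM in females and 10.02 FPKM in males, and if strand was not used in counting, reads of overlapping genes could not be separated. The chloride-oxalate exchanger Slc26a6 was at 4.24 FPKM in females and 4.37 FPKM in males, and Slc26a11, reported to carry sulfate and chloride, at 4.13 and 4.56 FPKM. The sulfate carriers Slc26a2 and Slc26a1 were low: Slc26a2 at 2.1 FPKM in females and 2.24 FPKM in males, and Slc26a1 at 1.18 and 1.21 FPKM. Slc26a8, known from testis, was at 1.16 FPKM in females and 1.23 FPKM in males. The last 3 were not tested: Slc26a3, known from colon, had 0.00619 FPKM in females and a listed 0 in males, Slc26a9, a chloride carrier of lung and stomach, was at 0.0183 FPKM in females and 0.0056 FPKM in males, and Slc26a5, the motor protein of cochlear hair cells, was listed at 0 in both sexes.

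Each calcium exchanger family, grouped by the symbols of the deposited table, was held by a single gene. Slc8a1, which moves sodium in and calcium out across the plasma membrane (chromosome 6, 4217568 to 4481722), made up 97.7% of its family's sum in females and 97.5% in males. Its level was 6.17 FPKM in females and 6.78 FPKM in males (q = 0.999; the authors' deposited table). Slc24a6, now named Slc8b1 and known as the sodium-calcium exchanger of mitochondria (chromosome 12, 43421502 to 43444143), had 17.5 FPKM in females and 20.3 FPKM in males (q = 0.901; the authors' deposited table). It made up 97.5% and 97.8% of the Slc24a sum in females and males, and it counts there only through its older symbol. None of the other Slc24a members was tested. The next in each family were Slc8a3, at 0.109 FPKM in females and 0.128 FPKM in males, and Slc24a1, at 0.122 and 0.149 FPKM, neither of them tested. Slc8a2, SLC24A2, Slc24a3, SLC24A4 and Slc24a5, known from brain, eye, muscle or pigment cells, were not above 0.137 FPKM in females or 0.107 FPKM in males, and SLC24A4 was listed at 0 in females. In all, 13 members were not tested, and no value of theirs was above 0.294 FPKM in either sex.

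**Figure D3:**
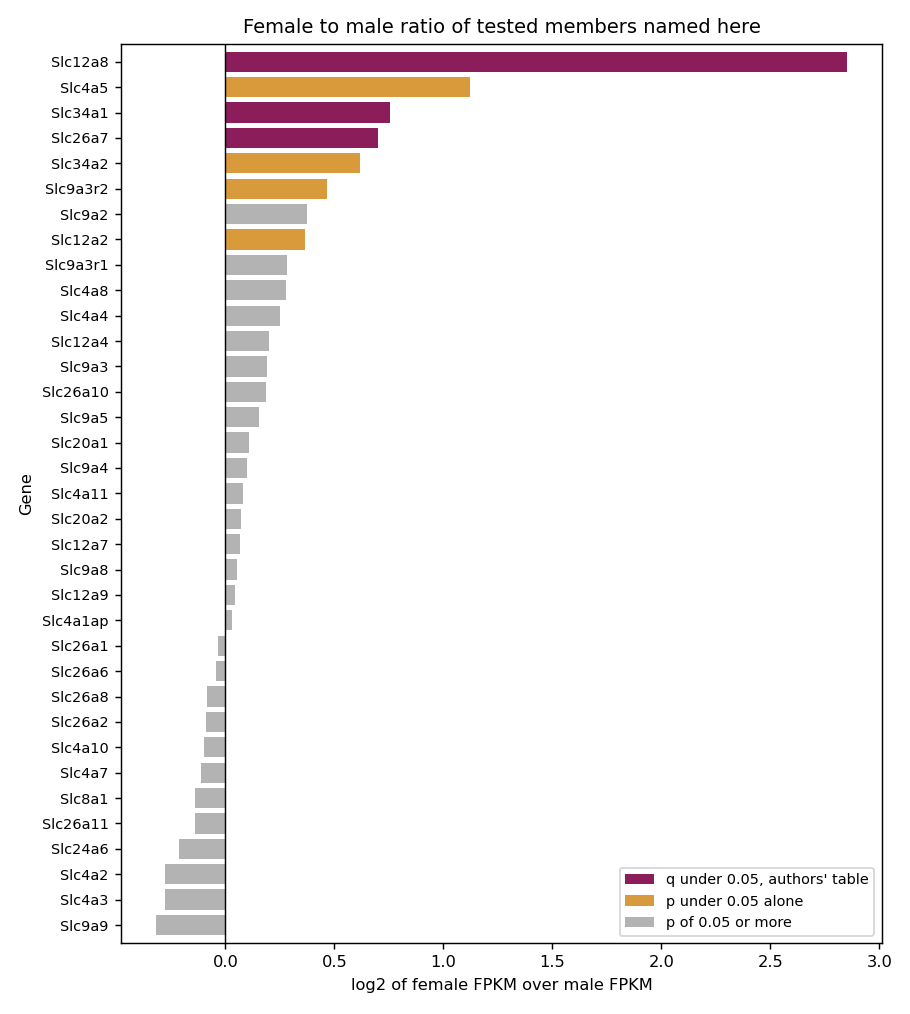
Bars give the log2 ratio of female to male FPKM for 35 tested members, from highest to lowest, coloured by the authors' deposited p and q; there is no error bar, since each value joins 2 pools. The bars run from 2.85 for Slc12a8 to -0.32 for Slc9a9, and the 3 called members are all above 0.

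The transporters of these families that the rule leaves out were not called by the authors' test either, and none of the 4 tested had p under 0.05. Slc12a1, which takes up salt in the thick limb, had 231 FPKM in females and 199 FPKM in males, and Slc4a1, the chloride-bicarbonate exchanger of intercalated cells and red blood cells, had 208 and 184 FPKM. Slc4a9 was at 24.3 FPKM in females and 18.6 FPKM in males (p = 0.052 and q = 0.520; the authors' deposited table). Slc12a3, the thiazide-sensitive cotransporter of the distal tubule, was at 0.882 FPKM in females and 1.13 FPKM in males, and Slc26a4, a bicarbonate secreting exchanger, at 0.199 and 0.196 FPKM.

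Genes that act on these transporters were taken from lists of known regulators. Of 10 tested genes of the WNK and SPAK kinase pathway, which switches Slc12a cotransporters by phosphorylation, none was called in either direction and none had p under 0.05 in the authors' deposited table. Their median log2 ratio was -0.08, with Wnk1 at 13.01 FPKM in females and 13.2 FPKM in males and Stk39, the SPAK kinase itself, at 45.8 and 49.6 FPKM. Of 18 tested binding partners and regulators of exchangers and phosphate carriers, 1 was called, and the median log2 ratio was 0.07. At p under 0.05, 5 had the higher value in females and 1 in males. Over all tested loci these shares were 6.08% and 3.68%, and 1.63% and 0.719% were called higher in females and males. The called gene was Pth1r, the parathyroid hormone receptor that drives Slc34a1 off the membrane, at 11.7 FPKM in females and 5.63 FPKM in males, 2.08-fold (q = 0.00391; the authors' deposited table). Pdzk1, a scaffold of Slc34a1 in the brush border, was at 11.2 FPKM in females and 3.80 FPKM in males (q = 0.056; the authors' deposited table). Chp2, a cofactor of sodium-hydrogen exchangers, was at 2.26 FPKM in females and 1.11 FPKM in males (q = 0.377; the authors' deposited table). Msn had 32.05 FPKM in females and 25.2 FPKM in males, and Car4, a carbonic anhydrase on the outer membrane face, had 39.4 and 30.2 FPKM. Sgk1, a kinase induced by aldosterone, was the one with the higher value in males, at 316 FPKM in females and 443 FPKM in males (p = 0.0052 and q = 0.132; the authors' deposited table). Of 10 tested calcium transport genes, Slc24a6 among them, none was called, and the median log2 ratio was -0.18. Calb1 alone had p under 0.05 in the authors' deposited table. Its value was higher in males, at 0.477 FPKM in females and 1.21 FPKM in males.

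Markers of cell types were set beside the called members. Beside the counts of each list below, 1.63% of all tested loci were called higher in females and 0.719% in males. At p under 0.05 in the authors' deposited table these shares were 6.08% and 3.68%. Proximal tubule markers, which mark a segment of cortex and outer medulla, were called higher in females for 7 of 10 tested, with a median log2 ratio of 1.44. The tested markers of this list that were not called were Miox, Pck1 and Hao2. Miox was at 21.1 FPKM in females and 20.3 FPKM in males, Pck1 at 3.94 and 4.01 FPKM, and Hao2 at 52.7 and 43.7 FPKM. So the list did not differ evenly between the sexes. Over the 14 found in the table, the FPKM sum was 1020 in females and 207 in males, of which Kap made up 910 FPKM in females and 131 FPKM in males. Slc34a1, with a log2 ratio of 0.75, Pth1r and Pdzk1 are themselves expressed in that segment, and the part of proximal tubule tissue in their difference was not tested. Among intercalated cell markers none of 8 tested was called, with a median log2 ratio of 0.20 and a sum of 795 FPKM in females and 731 FPKM in males, beside the log2 ratio of 0.70 of Slc26a7. Only Oxgr1 of that list had p under 0.05 in the authors' deposited table, at 5.59 FPKM in females and 3.59 FPKM in males.

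Urothelial markers were called higher in females for 3 of 6 tested, with a median log2 ratio of 1.05 and a sum of 38.7 FPKM in females and 19.6 FPKM in males; 5 had p under 0.05, with the higher value in females. Thin limb markers were called higher in females for 2 of 6, Sptssb and Fst, with a median of 0.53 and sums of 1006 and 953 FPKM in females and males, and 4 had p under 0.05, with the higher value in females. Leukocyte markers were called for 1 of 9, Cd3e, with a median of 0.53 and sums of 634 and 460 FPKM in females and males; 7 had p under 0.05 and all 9 had the higher value in females. Thick limb and distal tubule markers were called for 1 of 11, Egf, with a median of 0.27 and sums of 1675 FPKM in females and 1586 FPKM in males, while 3 had p under 0.05 with the higher value in females and 1 with the higher value in males. None of 10 tested principal cell markers was called by the authors' test, while 2 had p under 0.05 with the higher value in females and 2 with the higher value in males. Their median was -0.23 and their sum was 14923 FPKM in females and 20356 FPKM in males, led by Aqp2. None of 5 tested red blood cell loci was called by the authors' test and 1, that of Hba1 and Hba2, had p under 0.05, with a median of 0.27 and sums of 1026 and 771 FPKM in females and males. No marker found in the table was listed at 0 in both sexes, and the part of these cells in the ratios of Slc12a8, Slc26a7 and Slc34a2 was not tested. Umod, a thick limb marker, was at 830 FPKM in females and 904 FPKM in males; the thick limb does not enter the inner medulla.

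**Figure D4:**
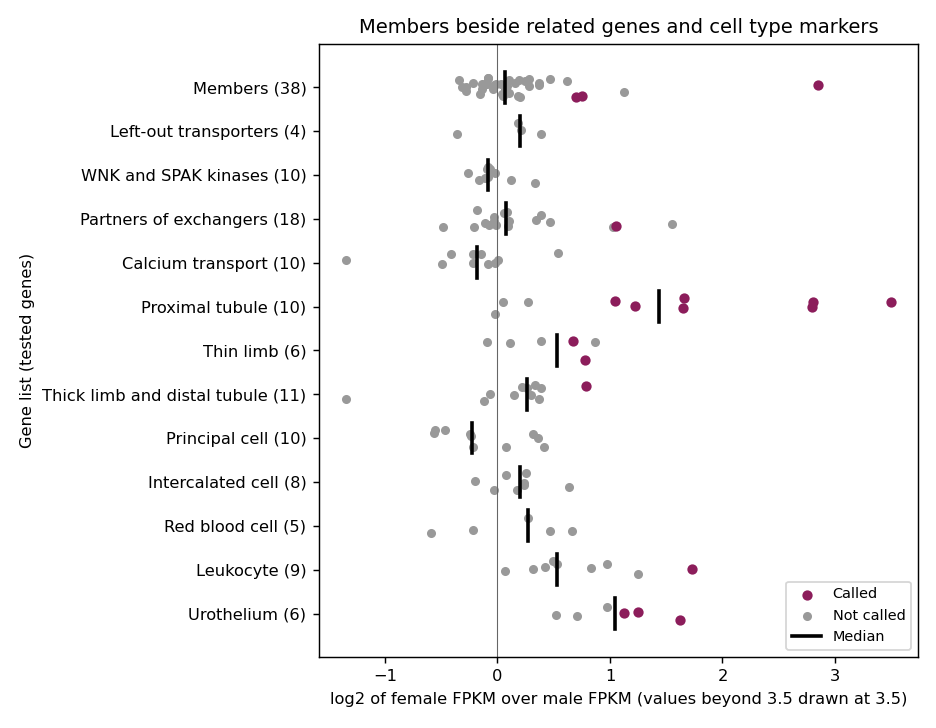
Each point is the log2 ratio of female to male FPKM of a tested gene, with called genes in dark red and a bar at the median of each list; the number of loci is beside each name, and loci shared by lists are drawn in each. The median is 0.07 for the members, 1.44 for proximal tubule markers and 0.20 for intercalated cell markers.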

How the data were processed

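Total RNA of inner medulla was sequenced in 4 libraries, 2 pools per sex, and groups come from the sample titles. The submitters' processing notes list TopHat2 2.1.1, Cufflinks 2.2.1, StringTie, FastQC and cutadapt, and rn5 as the build, with no role or order. The headers name 1 value column Female and 1 Male, and each was read as both pools of that sex joined. The headers do not say how pools were combined. The value columns deposited by the authors were read as FPKM, since the columns are laid out like Cuffdiff output and no header states the unit. How libraries were scaled and whether strand was used is not given in the sources used here. Each p-value and q-value was deposited by the authors; adjusting p by Benjamini-Hochberg across tested loci gave the same q to within 5.26e-07. Read counts per library were deposited by the authors in a separate table. A second table, of 8418 loci, holds the same FPKM values as the main one deposited by the authors at all of them, and 8 of the members. Depth was 34552171 to 41945343 read pairs; with 1 value per sex no counting interval can be set, and no test of pools was possible.

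Log2 ratios were computed with no pseudocount in Python 3.11.15 with pandas 2.3.3. Members were matched by symbol in any letter case, and list genes also by older names in the RefSeq table of assembly GRCr8. The Benjamini-Hochberg step was tested on simulated data. The rule for the members uses symbols alone, but it, the gene lists and the motifs were chosen with earlier results of these data known. Genes given a sentence of their own were those called, those with p under 0.05, and the pair of highest level in each family. A few members count in the totals but are not reported here by name.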

Additional observations from a re-analysis of the deposited data

How the results depend on the processing

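With q under 0.01 in place of 0.05, 3 members were called higher in females. None of the 3 could drop out there, since each has the smallest q, 0.00391. With q under 0.1 there were 4, Slc34a2 being added. For other cuts on q, and for p adjusted again, the share over all tested loci was not counted, so these counts have no background beside them. No setting tried gave a member called higher in males (0 in each, with 1 at an unadjusted p under 0.05 in the authors' test). With p adjusted again over tested loci with a mean of at least 1 FPKM, or of at least 5 FPKM, 2 were called higher in females, since Slc12a8 lies below both limits. Taking the row of lowest sum, or loci of a single symbol, could not change the count of 3. No member has several rows or lies at a joined locus, so both settings take the same rows. The median log2 ratio of 0.07 was 0.05 with a mean of at least 1 FPKM and 0.08 with at least 5 FPKM. It was 0.09 when centred on -0.0152, the median of tested loci with a mean of at least 1 FPKM. For 19 named members, 57 values were taken under other pseudocounts or centring, and 8 moved by over 0.1. These were values of Slc12a8, Slc4a5, Slc8a3 and Slc24a1 with a pseudocount. No sign could change. A pseudocount added to both values keeps the sign, and the centring shift was smaller than any of the 19 ratios. The log2 ratio of Slc4a5, 1.12, was 0.40 with 1 FPKM added.

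No paired analysis was possible because the table holds 1 value per sex with both pools joined, and leaving out a pool could not be run for the same reason. Low values limit Slc12a8 and Slc4a5 most.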
